A study of Mus musculus with 10 samples.

Results

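The genes described here are Trp53, which encodes the tumour suppressor p53, and 9 genes that p53 is known to switch on: Cdkn1a, Mdm2, Ccng1, Bax, Bbc3, Phlda3, Zmat3, Gdf15 and Eda2r. They were taken by symbol from a deposited table of 18223 protein-coding genes, which lists all 10, and all 10 passed the filter on low counts that left 13469 genes to test. Expression was compared between MC38 tumours of high and low burden. Of the 10 genes, Cdkn1a fell about 2.01-fold in high burden, while Trp53 itself stood at 326 and 332 CPM (the usual depth-scaled unit, a gene's reads relative to all reads of its library) in high and low burden.

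p53 is a transcription factor that is held at a low level in unstressed cells because Mdm2, a ubiquitin ligase, marks it for degradation. DNA damage and oncogene activity release it from Mdm2, and it then raises genes that stop the cell cycle, repair DNA or start apoptosis, together with Mdm2 itself, which closes a feedback loop. p53 is regulated mainly as a protein, so the level of its transcript is not a measure of its activity. The targets are not exclusive to p53: Cdkn1a is also raised by other transcription factors during differentiation and cytokine signalling, and Gdf15 by the integrated stress response. MC38 cells have been reported to carry coding changes in Trp53. Counts per gene do not show which allele or which cells the transcripts came from.

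The libraries were made from whole subcutaneous tumours of MC38, a mouse colon adenocarcinoma cell line, with no genetic change or drug named in the labels. The high tumour burden group (HTB, n = 5) is labelled 2000000 and the low tumour burden group (LTB, n = 5) 500000, each for 14 days, taken here as cells injected and days of growth. The labels name no host strain, sex or age nor whether the libraries are from separate animals, so p-values measure the spread between these libraries, which may be technical. Unless said otherwise, ± gives the SD of a CPM mean (n = 5 libraries per group) or the SE of a log2 fold change, which is HTB minus LTB throughout. Totals lay between 23070903 and 27185152 estimated reads. Each library mixes tumour cells with leukocytes and stroma, so a transcript that is lower may mean fewer cells of a type or less RNA per cell, and these cannot be told apart.

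Some libraries stood apart. HTB replicate 2 held 13456 CPM of 7 skeletal muscle markers, against at most 49.7 CPM in any other library, and 2560 CPM of 5 fat markers, against 26.2 CPM or less elsewhere. The muscle genes Acta1, Tnnt3 and Atp2a1 passed the test as higher in HTB, and Fabp4, a fatty acid carrier of fat cells, did not (log2 fold change 4.52, adjusted p = 0.0706). LTB replicate 1 held the most of 7 leukocyte markers, 1623 CPM, against 730 to 1079 CPM in the other LTB libraries and 347 to 595 CPM in HTB. Of those 7 markers 4 fell in HTB (Itgax, Ptprc, Itgam and Lyz2) and none was at 0. The 8 fibroblast and endothelial markers summed to between 2381 and 3315 CPM over all libraries, with none called by edgeR. In edgeR 2 had an unadjusted p under 0.05 (Pdgfra and Cdh5, log2 fold change 0.63 and 0.87). Single markers were less even than the sum. HTB replicate 2 was the highest library for the endothelial markers Pecam1, Cdh5 and Kdr (101, 105 and 35.3 CPM). The other libraries had at most 71.1, 33.8 and 15.8 CPM of these. HTB replicate 2 was also the highest for Col1a1 (831 CPM) and the lowest for Dcn (498 CPM). The epithelial markers Krt8, Krt18 and Krt19 stood at 0.203 CPM or less in every library. Of the other 2 epithelial markers, Cdh1 fell (3.44 against 8.89 CPM) and Epcam did not pass (0.536 against 0.998 CPM), so the keratins of an epithelial tumour are nearly absent here.

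p53 binds DNA at a response element of 2 units of 10 bases, and the upstream regions of the target genes show how unequally this sequence is placed among them. The 250 bases before each RefSeq transcript start (GRCm38.p6) were searched for the 20-base p53 response element consensus with no gap between the units. The consensus is its own reverse complement, so 1 search covers both strands. Entries matched for 9 of the 10 genes, 13 starts in all; Zmat3 had none. Each line gives the best match nearest to the consensus, in capitals where a base fits it and in lower case where it does not.
Cdkn1a: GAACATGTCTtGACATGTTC
Ccng1: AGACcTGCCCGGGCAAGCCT
Bax: AGcaTAtCCCAGGCAAGCTT
Bbc3: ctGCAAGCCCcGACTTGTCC
Trp53: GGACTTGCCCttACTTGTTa
Mdm2: GAACTTGCCTAGcgAccaTT
Phlda3: GGcCcTGTCCGGGCggGTgC
Gdf15: GAAtcAGTTTGGGgAgGgTT
Eda2r: AGAtTAGgCTAGAtcTaaCT

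Cdkn1a and Ccng1 each fit 19 of 20 bases. Of 32851 upstream regions in the table, 25 (0.0761%) hold a match with at most 1 mismatch. Bax, Bbc3 and Trp53 fit 17 bases, which 5.32% of regions reach, Mdm2, Phlda3 and Gdf15 fit 15, which 71.1% reach, and Eda2r fits 14, which 97.4% reach. The Cdkn1a match lies at chr17:29090928-29090947 on the plus strand, 51 to 32 bases before the first listed start of the gene and 2841 bases before its second start. At that second start the best match fits 15 bases. The Ccng1 match lies at chr11:40755462-40755481, 195 to 176 bases before the start on the minus strand. A match is a description of the sequence and does not show binding. The windows leave out most intron and distal sequence, where p53 is known to bind near several of these genes, Mdm2 among them. The Bax and Bbc3 matches, at chr7:45467090-45467109 and chr7:16309486-16309505, lie inside the gene spans given below.

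These 2 regions are shown in full, without bases that GENCODE M21 annotates as exon, because they hold the closest matches to the consensus among the 9 genes searched. The first is 247 bases at chr17:29090729-29090975, and the second 225 bases at chr11:40755312-40755536, read on the strand of the gene, with the match in capitals.
Cdkn1a: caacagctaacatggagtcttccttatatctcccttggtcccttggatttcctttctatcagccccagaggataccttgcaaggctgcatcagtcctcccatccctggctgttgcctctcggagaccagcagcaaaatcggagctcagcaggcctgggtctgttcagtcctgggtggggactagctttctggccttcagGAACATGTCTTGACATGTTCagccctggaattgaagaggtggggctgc
Ccng1: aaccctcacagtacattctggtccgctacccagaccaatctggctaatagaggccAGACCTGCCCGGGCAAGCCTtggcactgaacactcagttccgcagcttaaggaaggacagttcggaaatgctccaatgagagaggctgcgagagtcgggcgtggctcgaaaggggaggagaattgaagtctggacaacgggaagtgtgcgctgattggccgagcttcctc

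Trp53 (NCBI gene 22059) is placed by the table on chromosome 11 from 69580359 to 69591873, plus strand, exons and introns together. It stood at 331, 309, 333, 328 and 330 CPM in HTB replicates 1 to 5 and at 302, 338, 315, 345 and 362 CPM in LTB replicates 1 to 5. Every HTB library lay inside the LTB range, and the highest and lowest values were both LTB libraries. The LTB values of 338, 345 and 362 CPM lay above every HTB library, 302 CPM lay below, and 315 CPM lay among them. The log2 fold change (HTB minus LTB) was -0.02 ± 0.06 (SE; edgeR quasi-likelihood test, adjusted p = 0.839), with a 95% interval of -0.16 to 0.12. Between 7364 and 9105 reads per library lie behind these values.

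**Figure D1:**
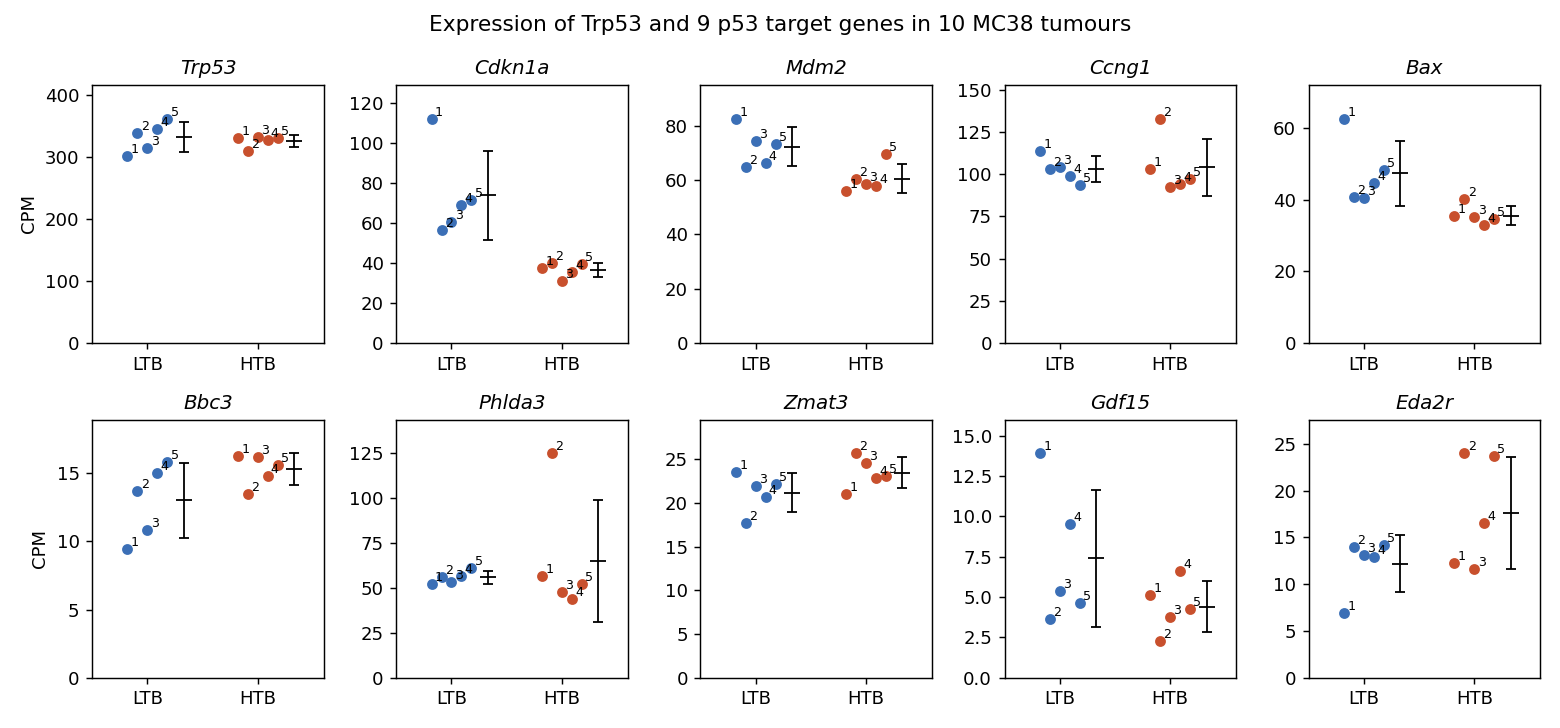
CPM (vertical axis, linear from 0) of the 10 genes in 5 LTB (blue) and 5 HTB (red) libraries, numbered by replicate, with the mean and SD of each group as a black bar. Cdkn1a and Bax are the genes whose groups do not overlap, LTB replicate 1 is the highest point of Cdkn1a, Mdm2, Bax and Gdf15, and HTB replicate 2 is the highest of Phlda3, Ccng1, Zmat3 and Eda2r.

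Mdm2 (17246; chromosome 10 from 117688875 to 117710758, minus strand) is both a target and the main inhibitor of p53. Its levels were 55.8, 60.5, 58.4, 57.8 and 69.4 CPM in HTB and 82.6, 64.7, 74.5, 66.1 and 73.3 CPM in LTB, by replicate number. Only HTB replicate 5 reached into the LTB range. The mean was 60.4 ± 5.33 CPM in HTB and 72.2 ± 7.20 CPM in LTB; the log2 fold change of -0.25 ± 0.08 did not pass (edgeR adjusted p = 0.0758). The call depended on the setting: Mdm2 passed by the DESeq2 Wald test (adjusted p = 0.0445), by limma voom with sample quality weights (adjusted p = 0.0304) and, in edgeR, without HTB replicate 5 (log2 fold change -0.31, adjusted p = 0.0492). The q for Mdm2 in the authors' deposited table, 0.053, does not pass. The Mdm2 counts of all 10 libraries were fractional, as were those of Zmat3 in 5, so the reads of both were not all assigned whole and their values are less certain than the others.

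Cdkn1a (12575; chromosome 17 from 29090979 to 29100722, plus strand) encodes p21, the inhibitor of cyclin-dependent kinases through which p53 arrests the cell cycle. It was the gene of the 10 that passed the test. HTB replicates 1 to 5 had 37.2, 39.8, 31.1, 35.5 and 39.3 CPM, and LTB replicates 1 to 5 had 112, 56.5, 60.4, 68.7 and 71.4 CPM. Every HTB library lay below every LTB library, and LTB replicate 1 lay far above the other LTB libraries. The mean fell from 73.8 ± 22.2 to 36.6 ± 3.53 CPM. The log2 fold change was -1.01 ± 0.17 by edgeR (adjusted p = 0.00645), with a 95% interval of -1.41 to -0.61.

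The fall of Cdkn1a passed under each of the 19 alternative settings, with a log2 fold change between -1.09 and -0.81 and a largest adjusted p of 0.0226. Without LTB replicate 1 it was -0.81 (adjusted p = 0.00163), without HTB replicate 2 it was -1.04 (adjusted p = 0.00555), and without both it was -0.84 (adjusted p = 5.63e-04). The summed leukocyte markers were also lower in every HTB library than in any LTB library and highest in LTB replicate 1. Within the groups the orders differed. HTB replicate 5 had the lowest sum (347 CPM) with Cdkn1a at 39.3 CPM. HTB replicate 3, the lowest for Cdkn1a (31.1 CPM), had a sum of 555 CPM. LTB replicate 4 had the lowest LTB sum (730 CPM) with Cdkn1a at 68.7 CPM. The marker Itgax was lowest among the LTB libraries in LTB replicate 1 (17.3 CPM). The part of leukocytes in the fall of Cdkn1a was not tested. GENCODE M21 places an exon of AC167363.2, a gene on the opposite strand, over 7.68% of the Cdkn1a exon bases, and the strand setting of the counting is not given in the sources used here.

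The 3 genes whose log2 CPM profiles over the 10 libraries came closest to that of Cdkn1a, among 11788 compared, were Tnfaip3, Rnf19b and Pim1. Likeness was the root mean square difference of profiles centred on their own means, 0.14 for Tnfaip3, 0.15 for Rnf19b and 0.17 for Pim1. Tnfaip3, which encodes the ubiquitin-editing protein A20, had 11.6 to 15.3 CPM in HTB, 48.7 CPM in LTB replicate 1 and 21.4 to 27.3 CPM in the other LTB libraries. Its log2 fold change was -1.11 ± 0.22 (edgeR adjusted p = 0.0113). As Tnfaip3 was picked for its likeness to Cdkn1a in these same libraries, this fall follows from the choice and is no separate result.

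The share of the 10 genes called by edgeR on all libraries was close to that of all genes. In edgeR, 11.4% of all tested genes passed in either direction, 7.51% lower and 3.91% higher in HTB, and of the 10 genes 1 was lower and 0 were higher. At an unadjusted p under 0.05, edgeR put 3 lower (Cdkn1a, Mdm2 and Bax) and 0 higher. Here and for the other lists, the share of all genes at that unadjusted threshold was not computed. Such counts are therefore not read as a result about the genes. The DESeq2 Wald test and limma voom with sample quality weights each called 3 lower, limma voom called 1, and none of them called a gene of the 10 higher. Over all genes, limma voom called 11% and voom with sample quality weights 26.7%. Thus 3 of 10 under the weights is near the share of all genes. DESeq2 called 13.9%, but of all 18187 genes with any count, not of the genes that the edgeR filter kept. That total includes genes to which DESeq2 gave no adjusted p, Btg2 among them, so its share is understated. Its 3 of 10 was above that share, which is not over the same set of genes. The groups did not overlap, HTB below LTB, in 2 of the 10 (Cdkn1a and Bax), against 7.4% of all tested genes, and in 0 of the 10 in the other direction, against 4.13%. The median log2 fold change was 0.00 over the 10 genes, 5 above and 5 below 0, and 0.02 over all tested genes.

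Bax (12028; chromosome 7 from 45461695 to 45468205, minus strand) encodes the protein that permeabilises the outer mitochondrial membrane in apoptosis. HTB replicates 1 to 5 had 35.4, 40.1, 35.1, 33.0 and 34.7 CPM, and LTB replicates 1 to 5 had 62.7, 40.9, 40.4, 44.6 and 48.3 CPM. The groups did not overlap, but HTB replicate 2 came within 1 CPM of LTB replicates 2 and 3. The mean was 35.6 ± 2.65 CPM in HTB and 47.4 ± 9.14 CPM in LTB, and the log2 fold change of -0.40 ± 0.12 missed the threshold (edgeR adjusted p = 0.0541).

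Bax stood on the edge of the threshold. It passed without HTB replicate 2 (log2 fold change -0.45, edgeR adjusted p = 0.0252), without LTB replicate 2 (-0.45, adjusted p = 0.0486) and without HTB replicate 2 and LTB replicate 1 together (-0.33, adjusted p = 0.00879). DESeq2 gave an adjusted p of 0.0188, while 0.0224 is the q for Bax in the authors' deposited table. Gm45808, annotated on the same strand, shares 12.2% of the exon bases of Bax.

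Bbc3 (170770; chromosome 7 from 16308320 to 16318334, plus strand) encodes PUMA, a BH3-only protein that activates Bax. Its levels were 16.3, 13.5, 16.2, 14.8 and 15.6 CPM in HTB and 9.46, 13.7, 10.8, 15.0 and 15.8 CPM in LTB, by replicate number. LTB replicate 1, the highest library for Bax and Cdkn1a, was the lowest for Bbc3. At 0.24 ± 0.14, its log2 fold change did not pass (edgeR adjusted p = 0.28), with a 95% interval of -0.08 to 0.57. The estimate for this activator was thus above 0 and that for Bax below it, and neither passed.

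Ccng1 (12450; chromosome 11 from 40739586 to 40755315, minus strand) encodes cyclin G1, which takes part in the feedback on Mdm2. It had 103, 133, 92.6, 94.5 and 97.3 CPM in HTB and 114, 103, 104, 99.0 and 93.5 CPM in LTB, by replicate number. HTB replicate 2 was the highest library, and the other 9 were mixed. The log2 fold change was 0.03 ± 0.11 (edgeR adjusted p = 0.888; 95% interval -0.22 to 0.27). Ccng1 and Cdkn1a, which share the closest upstream match to the consensus, thus had estimates of 0.03 and -1.01, and the interval of one does not reach that of the other; the difference itself was not tested.

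Phlda3 (27280; chromosome 1 from 135766085 to 135769134, plus strand) encodes a small protein that blocks membrane recruitment of the kinase Akt. It had 56.4, 125, 47.7, 44.1 and 52.2 CPM in HTB and 52.4, 56.3, 53.1, 56.9 and 61.0 CPM in LTB, by replicate number. Its log2 fold change of 0.23 ± 0.26 (edgeR adjusted p = 0.598) rested on HTB replicate 2, the library rich in muscle and fat transcripts. Without that library the sign turned, at -0.16 (adjusted p = 0.176). The part of muscle or fat in the value of 125 CPM was not tested.

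Zmat3 (22401; chromosome 3 from 32334792 to 32365665, minus strand) encodes an RNA-binding zinc finger protein that alters splicing downstream of p53. Its levels ran from 21 to 25.7 CPM in HTB (median 23.1) and from 17.7 to 23.6 CPM in LTB (median 22.0), so the groups overlapped. The log2 fold change of 0.15 ± 0.09 did not pass (edgeR adjusted p = 0.302).

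Gdf15 (23886; chromosome 8 from 70629393 to 70632470, minus strand) encodes a secreted stress cytokine of the TGF-beta superfamily. It had 5.10, 2.28, 3.77, 6.59 and 4.28 CPM in HTB and 13.9, 3.62, 5.34, 9.54 and 4.62 CPM in LTB, by replicate number. LTB replicates 1 and 4 were high, and the other 3 LTB libraries lay inside the HTB range. The log2 fold change of -0.74 ± 0.39 did not pass (edgeR adjusted p = 0.232), and it dropped to -0.39 (adjusted p = 0.52) without LTB replicate 1. With 56 to 366 reads per library, Gdf15 had the lowest mean CPM of the 10 genes in both groups.

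Eda2r (245527; chromosome X from 97333837 to 97377218, minus strand) encodes a TNF receptor family member that binds ectodysplasin A2. It had 12.3, 24.0, 11.6, 16.6 and 23.7 CPM in HTB and 6.89, 14.0, 13.1, 12.9 and 14.2 CPM in LTB, by replicate number. HTB replicates 2, 4 and 5 lay above every LTB library, HTB replicates 1 and 3 lay inside the LTB range, and LTB replicate 1 was the lowest. The log2 fold change of 0.54 ± 0.26 did not pass (edgeR adjusted p = 0.195; 95% interval -0.06 to 1.14). It became 0.40 without HTB replicate 2, 0.39 without LTB replicate 1 and 0.25 without both (adjusted p = 0.4).

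**Figure D2:**
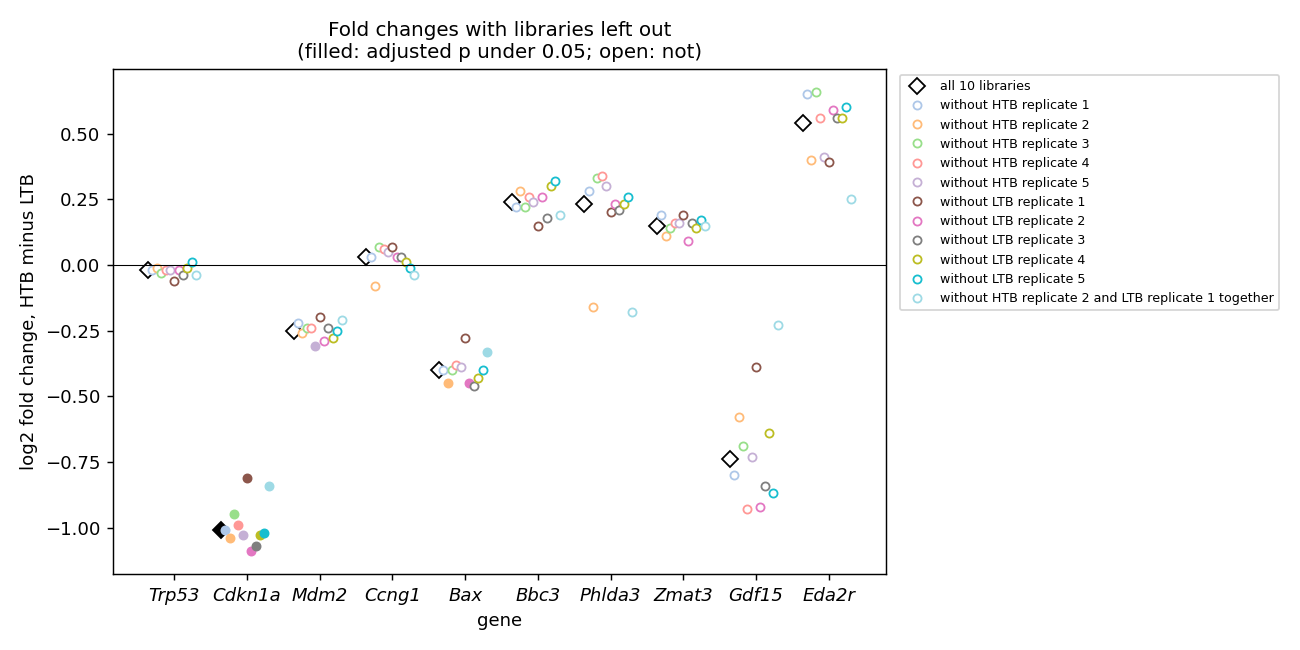
Log2 fold change (vertical axis, HTB minus LTB) of each gene (horizontal axis) from edgeR on all 10 libraries (diamonds) and with libraries left out (circles), filled where the adjusted p is under 0.05. Cdkn1a stays between -1.09 and -0.81 and is filled throughout, Bax and Mdm2 are filled in some fits, and Phlda3 turns below 0 without HTB replicate 2.

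The genes differed in how evenly they were expressed within a group. Trp53 had a coefficient of variation (SD over mean) of 2.93% in HTB, the smallest of the 10 there, and 7.20% in LTB, where Phlda3 was lower. Cdkn1a varied by 9.66% in HTB and 30.1% in LTB, and Bax by 7.43% and 19.3%, with LTB replicate 1 as the highest LTB library of both. Gdf15 varied by 36.3% and 57.6%, Eda2r by 33.9% and 24.8%, and Phlda3 by 52.1% in HTB and 6.17% in LTB.

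For levels between genes, the authors' deposited table gives a mean expression per group whose unit the header does not name. In 885 genes with a single listed transcript, CPM per kilobase of that column matched the GENCODE transcript length to a median quotient of 0.915 (quartiles 0.829 and 0.956), so it is read as a value per length. On that scale the authors' means for HTB and LTB were 195.5 and 195.8 for Trp53, 46.3 and 60.7 for Bax, 47.9 and 40.8 for Phlda3, 31.2 and 30.2 for Ccng1, 20.4 and 40.4 for Cdkn1a, and 19.4 and 23.1 for Mdm2. Bbc3 followed at 9.14 and 7.73, then Gdf15 at 4.55 and 7.47, Eda2r at 3.33 and 2.31 and Zmat3 at 3.08 and 2.73 in the authors' deposited table. Trp53 was the most abundant of the 10 in both groups. Cdkn1a lay between Ccng1 and Mdm2 in HTB and between Phlda3 and Ccng1 in LTB; these means carry no spread, so the order of neighbours was not tested.

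The wider p53 network was then described from lists by role. The list of 21 regulators of p53, which holds kinases of the damage response, ubiquitin ligases and acetyltransferases, had 18 tested genes. Of these 1 fell and 0 rose in edgeR (5.56% called, against 11.4% of all tested genes). At an unadjusted p under 0.05, 2 were lower and 2 higher. The DESeq2 Wald test and limma voom also called 1 and 0. Voom with sample quality weights called 2 and 1, where it called 26.7% of all genes. The gene that fell in edgeR was Atm, the kinase that responds to DNA double-strand breaks. It stood at 51.7 ± 5.84 CPM in HTB and 64.7 ± 2.36 CPM in LTB. Its log2 fold change of -0.32 ± 0.08 (edgeR adjusted p = 0.0245) did not pass without HTB replicate 3 or 4 or LTB replicate 3 or 4 (adjusted p = 0.0705, 0.0591, 0.0592 and 0.0566). Mdm4, the other main inhibitor of p53, stood at 0.09 ± 0.10. Cdkn2a, whose product Arf restrains Mdm2, and the p53 relatives Trp63 and Trp73 were too low to test; Cdkn2a had 0.305 CPM or less in every library.

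Among 16 further targets that act in arrest and DNA repair, 2 rose and 0 fell in edgeR (12.5% called). Over all tested genes, 11.4% were called, 3.91% higher and 7.51% lower. Sesn1, which encodes sestrin 1, an inhibitor of mTORC1, rose to 40.1 ± 3.93 CPM from 27 ± 5 CPM in LTB (0.57 ± 0.13 on the log2 scale, edgeR adjusted p = 0.021) and did not overlap between the groups. Xpc, the damage sensor of nucleotide excision repair, rose by 0.39 ± 0.10 (adjusted p = 0.0328) but lost the call in 7 of the 10 fits that leave out a library (HTB replicate 1, 3, 4 or 5, or LTB replicate 1, 3 or 5; adjusted p = 0.0555 to 0.0826). Sesn1 lost its call without HTB replicate 4 (adjusted p = 0.0528). Beside the 0 that fell in edgeR, 2 were lower at an unadjusted p under 0.05, and DESeq2 and limma voom called 0 lower. Voom with sample quality weights called 3 lower and 3 higher, where it called 26.7% of all genes. The list's median log2 fold change was 0.02, the same as over all tested genes. Without HTB replicate 2, 4 rose and 2 fell, where 22.4% of all genes were called; Btg2, an antiproliferative gene, went from -0.57 (adjusted p = 0.492) to -1.41 (adjusted p = 0.00916).

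Among 12 further targets of cell death, 11 were tested, 3 fell and 0 rose in edgeR (27.3% called). Over all tested genes, 11.4% were called, 7.51% lower and 3.91% higher. Pmaip1, which encodes the BH3-only protein NOXA, fell to 1.49 ± 0.305 CPM from 4.09 ± 1.85 CPM in LTB (-1.45 ± 0.30 on the log2 scale, edgeR adjusted p = 0.0145), did not overlap between the groups, and passed under all 19 alternative settings. Bid and Pidd1, which encode a BH3-only protein cleaved by caspases and the scaffold of the PIDDosome, also fell, at -0.35 ± 0.10 (adjusted p = 0.0428) and -0.28 ± 0.08 (adjusted p = 0.0441). Bid lost its call in 7 of the 10 fits that leave out a library, all but those without HTB replicate 2 or LTB replicate 2 or 5. Pidd1 lost it in 8, all but those without HTB replicate 2 or LTB replicate 4. The median of the list was -0.30 against 0.02 over all tested genes, and 10 of the 11 estimates were below 0. Without LTB replicate 1, 1 fell and the median was -0.23; without HTB replicate 2, 6 fell. Over all genes, 8.18% were called without LTB replicate 1 and 22.4% without HTB replicate 2. At an unadjusted p under 0.05 in edgeR, 6 were lower and 0 higher. DESeq2 called 4 lower, limma voom 3 and voom with sample quality weights 6, and each called 0 higher. Over all genes they called 13.9% (understated, as said above), 11% and 26.7%. With no filter on low counts 1 was lower, where 7.01% of all genes were called. With the replicate block 1 was lower, where 7.21% of all genes were called. The summed leukocyte markers were lower in every HTB library and highest in LTB replicate 1, although Itgax was lowest there among the LTB libraries (17.3 CPM); their part was not tested.

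Of 13 further targets in metabolism and secretion, 12 were tested, 1 fell and 0 rose in edgeR (8.33% called, against 11.4% of all tested genes). At an unadjusted p under 0.05 in edgeR, 3 were lower and 0 higher. DESeq2 called 2 lower, limma voom 1 and voom with sample quality weights 3, and each called 0 higher. Over all genes they called 13.9% (understated, as said above), 11% and 26.7%. The median of the list was -0.23, against 0.02 over all tested genes. The gene that fell in edgeR was Sulf2, which encodes an extracellular heparan sulfate sulfatase. It stood at 29.8 ± 7.23 CPM in HTB and 49.7 ± 8.50 CPM in LTB (-0.74 ± 0.17 on the log2 scale, edgeR adjusted p = 0.0231). Sulf2 lost the call without HTB replicate 3 or 4 or LTB replicate 5 (adjusted p = 0.0605, 0.06 and 0.0505). Over the 3 lists of further targets together, 6 of 39 tested genes (15.4%) were called, 4 lower and 2 higher, against 11.4% of all tested genes.

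**Figure D3:**
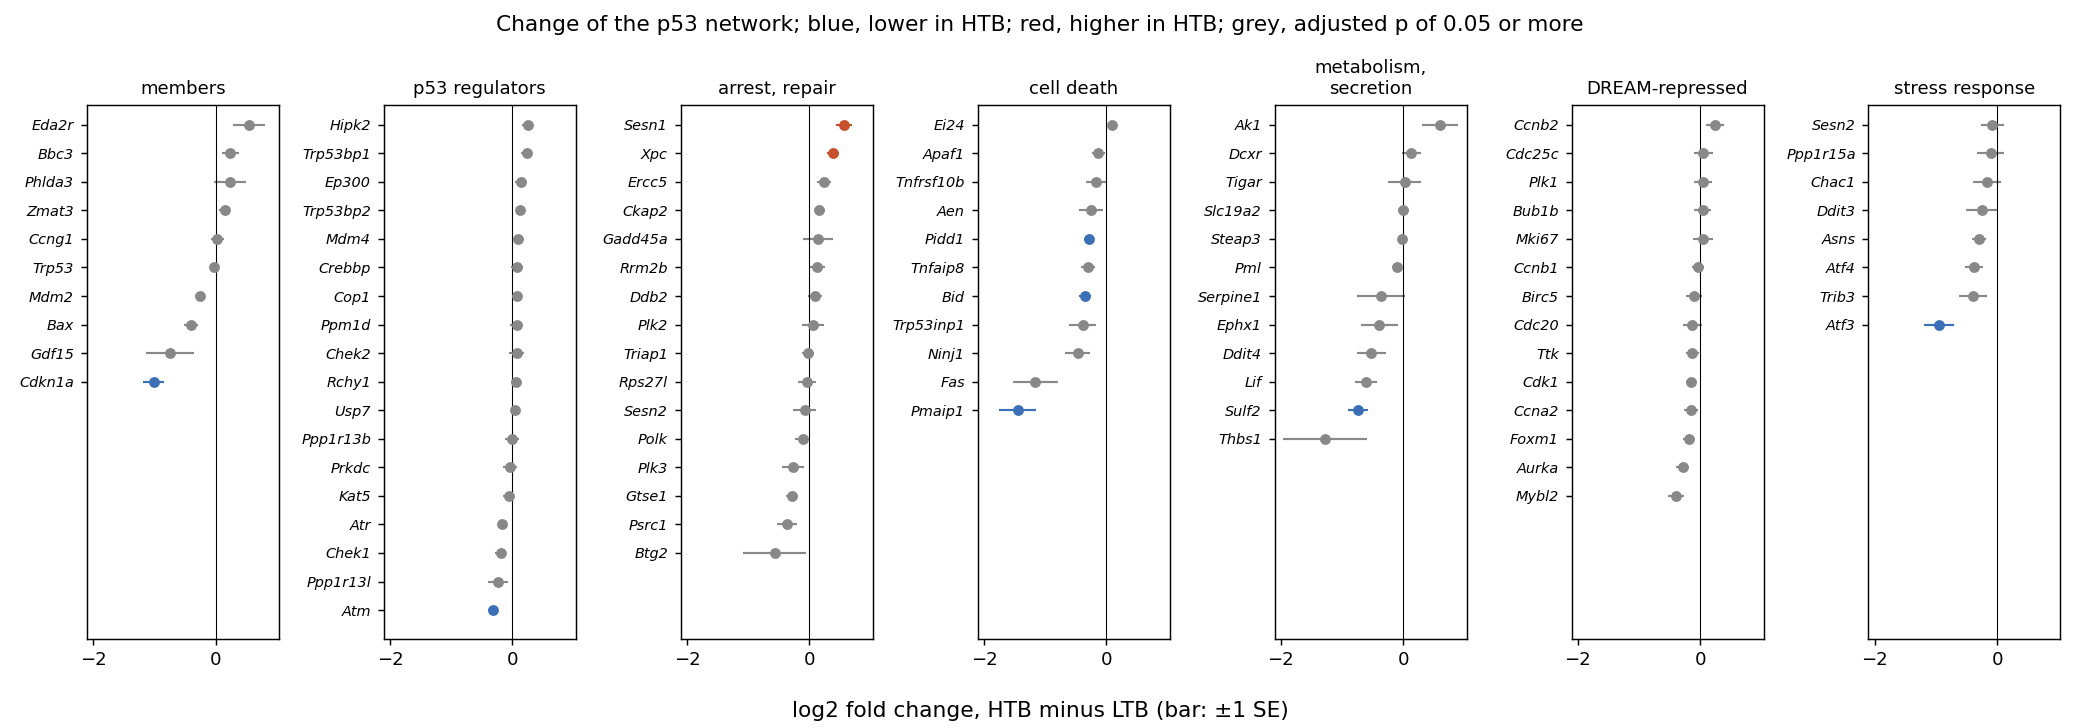
Log2 fold change (horizontal axis, HTB minus LTB, with bars of 1 SE) of the tested genes of each list, ordered by value; blue points passed as lower in HTB, red points as higher, and grey points did not pass. Cdkn1a and Pmaip1 lie farthest to the left among the coloured points, and none of the 14 DREAM-repressed genes is coloured.

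p21 lowers cell-cycle genes by letting the DREAM repressor complex form on their promoters. Of 14 such genes, 0 fell and 0 rose in edgeR, although Cdkn1a was lower in HTB. Of all tested genes, 11.4% were called in edgeR. At an unadjusted p under 0.05, 2 were lower and 0 higher. DESeq2 called 2 lower, limma voom 0 and voom with sample quality weights 4, and none of these called a gene higher. Over all genes, these methods called 13.9% (understated, as said above), 11% and 26.7%, in that order. Thus 4 of 14 under the weights is near the share of all genes. The 2 of smallest p were Mybl2 and Aurka, a transcription factor and a mitotic kinase, at -0.40 ± 0.13 (adjusted p = 0.0759) and -0.29 ± 0.10 (adjusted p = 0.0772). The median was -0.12 against 0.02 over all tested genes. Without HTB replicate 2, 3 of the 14 fell and the median was -0.18, and without HTB replicate 2 and LTB replicate 1 together 6 fell, with 0 higher in either fit. Those fits also called more of all genes, 22.4% and 21.6%.

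The integrated stress response, which also reaches Gdf15, was read from 8 genes, of which 1 fell and 0 rose (edgeR; 3 lower and 0 higher at an unadjusted p under 0.05, and 0 higher by DESeq2, limma voom or voom with sample quality weights). The gene was Atf3, a stress-induced transcription factor, which fell to 12 ± 2.60 CPM from 23.2 ± 9.27 CPM in LTB (-0.95 ± 0.24 on the log2 scale, adjusted p = 0.0305). Atf3 lost the call without HTB replicate 1, 3 or 5 (adjusted p = 0.0633, 0.0778 and 0.0683). In edgeR, 11.4% of all tested genes were called, 7.51% lower in HTB, so 1 of 8 (12.5%) is near the share of all genes. DESeq2 called 2 lower, limma voom 1 and voom with sample quality weights 1. Over all genes they called 13.9% (understated, as said above), 11% and 26.7%. Of all 13469 tested genes, 6374 had an estimate below 0 in edgeR, and the median was 0.02. All 8 estimates of the list were below 0 in edgeR on all libraries, with a median of -0.28. The median was -0.17 without HTB replicate 2, -0.14 without HTB replicate 2 and LTB replicate 1 together, and -0.09 by voom with sample quality weights, where Chac1 stood above 0 (0.09).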

How the data were processed

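The authors deposited 1 table of estimated counts per gene and library, on GRCm38 (mm10) per the labels. For aligner, counter and strand setting: not given in the sources used here. Whole values made up 86.4% of these counts (tolerance 1e-09); the others were rounded before testing. 1 row without a gene name was dropped. Library preparation used a column kit and SMARTer reagents, per the labels' protocols. The same deposited table gives a log2 fold change, with a p-value and q-value from DESeq2 per the file headers, positive where HTB is higher, and a mean expression score per group whose unit is not named.

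Genes were tested with edgeR 4.0.16 (quasi-likelihood, TMM factors 0.975 to 1.03, filterByExpr, group as the only term) in R 4.3.3, with Benjamini-Hochberg adjustment over 13469 genes and a threshold of 0.05. The method was tested on simulated data. CPM used TMM-scaled totals. SE is the log2 fold change over the root of F, and 95% intervals use 8 degrees of freedom. Alternatives were DESeq2 1.42.0, limma 3.58.1 voom with and without sample quality weights, other size factors, no filter, at least 1 CPM in 5 libraries, a block for the replicate number, and fits that left out each library in turn, or HTB replicate 2 and LTB replicate 1 together. Libraries within a group all differed by more than sampling noise.

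The members, lists and alternatives were chosen with earlier results of these data known. Named genes are the 10 members, up to 3 genes of smallest p in each direction among the called genes of each list (the 2 of smallest p where none passed), and the 3 genes most like a called member by edgeR log2 CPM (prior count 2, mean of at least 1). Mdm4, Cdkn2a, Trp63, Trp73, the keratins, Epcam, Lyz2, Btg2 and Chac1 were named after their values were seen. Upstream sequences are from RefSeq (GRCm38.p6); exon overlaps are from GENCODE M21.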

Additional observations from a re-analysis of the deposited data

Results flagged for a closer look

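In groups of 5, a library was picked out where its gap to the nearest other exceeded 0.71 of the group's range (Dixon's test); chance alone picks out about 1 in 20 groups, and 5 of the 20 sets looked at were picked out. Those 5 involve only 2 libraries. HTB replicate 2 was the lowest HTB library of Trp53 (309 CPM, others 328 to 333) and the highest of Ccng1 (133 CPM, others 92.6 to 103) and Phlda3 (125 CPM, others 44.1 to 56.4). LTB replicate 1 was the highest LTB library of Cdkn1a (112 CPM, others 56.5 to 71.4) and the lowest of Eda2r (6.89 CPM, others 12.9 to 14.2). The muscle and fat markers of HTB replicate 2 and the summed leukocyte markers of LTB replicate 1 stand apart in the same libraries, and their part in these values was not tested.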

How the results depend on the processing

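Cdkn1a and Pmaip1 kept their direction and call in all 19 alternatives. All genes lower in HTB numbered 1011, and 1988 by voom with sample quality weights, 1663 without HTB replicate 2 and LTB replicate 1 together, and 559 to 1716 with a library left out; genes higher numbered 526, and 1097 by DESeq2, 1605 by voom with weights, 1245 without those 2 libraries, and 177 to 1324 with a library left out. Members lower numbered 1, and 3 by DESeq2 and by voom with weights, 2 without both libraries, and 1 to 2 with a library left out. Pathway-list genes lower numbered 6, and 11 by DESeq2, 19 by voom with weights, 20 without both libraries and 1 to 16 with a library left out; those higher numbered 2, and 4 by voom with weights, 4 without both libraries and 0 to 6 with a library left out. The cause of these shifts was not tested. With the replicate block, 221 genes were higher, and 3 pathway-list genes were lower and 0 higher; Cdkn1a stood at -0.97 (adjusted p = 0.0115), Bax did not pass (0.106), and the calls of Sesn1 (0.0666), Xpc (0.0875), Atm (0.0718), Atf3 (0.0623), Bid (0.0843) and Pidd1 (0.124) were lost. With the block the SE went from 0.39 to 0.21 for Gdf15 and from 0.26 to 0.17 for Eda2r. Neither passed (edgeR adjusted p = 0.119 and 0.118). Same-numbered libraries correlated at 0.00164 to 0.109 in their deviations from group means over all tested genes, and 1 of 5 HTB libraries correlated best with its own number. Such low correlations over all genes do not settle whether the replicate numbers pair the libraries. Among the members and pathway-list genes only, calls gained under an alternative numbered 60 and calls lost 42. A gene is counted again for each alternative that changed its call, so these are not numbers of genes. Depth limits the genes of low CPM, Gdf15 and Pmaip1 among them.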
